A study of Mus musculus with 45 samples.

Results

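Transcript levels of 4 cadherins (Cdh1, Cdh2, Cdh3 and Cdh11), of the intermediate filament gene Vim and of the epithelial surface gene Epcam were described across 45 mouse mammary tumours. These 6 genes were taken by name from the 18820 genes that a probe set of the array names alone, and each had 1 such probe set. All 6 were among the 12123 genes kept by a filter on low values. Each tumour was hybridised to its own Affymetrix array, and values are on the log2 scale, so that 1 unit is a doubling.

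Every tumour arose from a piece of BALB/c mammary tissue with both copies of Trp53 lost (Trp53-null), grafted into an inguinal fat pad of a wild-type BALB/c female aged 10 weeks. All hosts had been cleared of their own mammary epithelium at 3 weeks of age, but kept their stroma, vessels and immune cells. Only the hosts were exposed, 3 days before grafting: 18 tumours came from sham hosts, and 9, 10 and 8 came from hosts given 10, 30 or 80 cGy of silicon (Si) ions, 27 in all. Tumours were removed at 1 cm3 within 600 days of observation. The labels number tumours within a group and do not say which came from the same donor or host, so that p-values measure the spread between these tumours. A tumour is a mixture of graft and host cells, and fewer cells of a type and less RNA per cell cannot be told apart.

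Classical cadherins are calcium-dependent adhesion proteins that join neighbouring cells and bind catenins inside the cell. Cdh1 (E-cadherin) holds epithelial cells together, Cdh3 (P-cadherin) is typical of basal and myoepithelial cells of the mammary gland, and Cdh2 (N-cadherin) and Cdh11 (OB-cadherin) are typical of mesenchymal cells. A change from Cdh1 to Cdh2 or Cdh11 is called a cadherin switch and is a textbook sign of epithelial-mesenchymal transition, in which Vim (vimentin) rises. Epcam encodes an adhesion molecule of epithelial cells. In the RefSeq gene order, Cdh3 and Cdh1 are direct neighbours on chromosome 8, and Cdh11 lies between Cdh8 and Cdh5 on the same chromosome.

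Array medians lay between 5.48 and 5.80, and the number of arrays limits the precision of every value. The deleted gene, Trp53, had no probe set of its own among those used and was not analysed here. A pair of tumours stood apart. The tumours 10 cGy replicate 1 and sham replicate 16 had the highest correlation of all 990 pairs of arrays (r = 0.978, against a median of 0.857), although their labels put them in different groups. The mean of 9 endothelium markers was 11.02 and 10.96 in them, and 9.13 in the next tumour, 30 cGy replicate 1. Cdh5, the cadherin of vessel walls, read 12.88 and 12.67, and Pecam1, an endothelial surface gene, 12.19 and 12.16, the highest values of the series. Not every marker of this list peaked in the pair. Vwf read at most 6.74 in the 8 tumours of lowest Cdh1, which include the pair, and up to 8.68 in the other tumours. Markers of the labelled tissue were low in both tumours of the pair: the mean of 8 mammary epithelium markers was 5.75 and 6.14. The keratin gene Krt8, at 7.01 and 7.46, was lower than in any other tumour. Results are therefore also given without this pair where its removal changed their direction, and for some where it changed their size. All 8 mammary epithelium markers passed the filter on low values.

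Cdh1 and Epcam were high in most tumours and low in the same few. Cdh1 (probe set 10575052) ran from 5.56 to 11.62 over the 45 tumours, with a median of 10.75 and an SD of 1.71. In sham tumours the lowest, median and highest values were 6.18, 10.54 and 11.62. They were 5.56, 11.13 and 11.39 at 10 cGy, 6.54, 10.74 and 11.47 at 30 cGy, and 7.13, 11.00 and 11.50 at 80 cGy. The 4 groups overlapped, and each held at least 1 tumour far below its median.

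Epcam (probe set 10447383) had an SD of 2.03, above that of 99.5% of the genes kept, whose median SD was 0.43. Its lowest, median and highest values were 4.80, 10.92 and 11.57 in sham tumours, 5.68, 11.24 and 11.97 at 10 cGy, 6.16, 10.87 and 11.65 at 30 cGy, and 5.96, 11.28 and 11.65 at 80 cGy. The low tail was thus present in every group.

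Promoter sequences are shown for Epcam and Vim, the only members with an entry in the promoter table used. Repressors of the Snai and Zeb families are known to bind the E-box CAGGTG, which reads CACCTG on the other strand. The RefSeq promoter table (GRCm38.p6) held entries for 2 of the 6 genes. The 250 bases before the Epcam start are at chr17:87635729-87635978 and those before the Vim start at chr2:13574061-13574310, both on the + strand, written 5′ to 3′ with the E-box in capitals.
Epcam: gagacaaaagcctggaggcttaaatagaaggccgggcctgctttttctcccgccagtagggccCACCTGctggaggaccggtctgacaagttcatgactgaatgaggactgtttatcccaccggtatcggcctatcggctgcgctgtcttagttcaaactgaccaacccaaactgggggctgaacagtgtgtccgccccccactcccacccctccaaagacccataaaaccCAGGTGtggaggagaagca
Vim: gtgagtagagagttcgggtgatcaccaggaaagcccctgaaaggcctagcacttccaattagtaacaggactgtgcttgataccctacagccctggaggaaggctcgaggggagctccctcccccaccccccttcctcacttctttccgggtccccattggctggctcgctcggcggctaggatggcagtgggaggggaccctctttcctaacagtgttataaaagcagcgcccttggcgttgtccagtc
The Epcam window held the motif at 2 places, starting 187 (CACCTG) and 19 (CAGGTG) bases before the start, and the Vim window did not hold these letters. Of 32851 promoter windows of the same length, 17.2% held the motif at least at 1 place and 2.06% at 2 or more. GC content was 56.4% for Epcam and 58.4% for Vim. A match of letters does not show that a factor binds there.

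Cdh3 (probe set 10575034) was spread widely in every group. The lowest, median and highest values were 4.83, 8.23 and 10.99 in sham tumours, 4.90, 8.32 and 10.05 at 10 cGy, 6.45, 7.56 and 10.21 at 30 cGy, and 5.84, 7.84 and 9.63 at 80 cGy. Its lowest values were those of the endothelium-rich pair. Its SD of 1.53 was above that of 97.6% of genes.

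Cdh2 (probe set 10457644) also varied continuously, with an SD of 1.23. Its values were 6.03, 7.99 and 10.19 in sham tumours, 5.16, 7.72 and 8.89 at 10 cGy, 6.03, 7.76 and 8.93 at 30 cGy, and 5.73, 8.04 and 9.44 at 80 cGy, again as lowest, median and highest. Of the 5 highest values, 4 were in sham tumours: sham replicate 6 (10.19), replicate 13 (9.80), replicate 5 (9.67) and replicate 10 (9.42), with 80 cGy replicate 8 at 9.44. Sham replicates 5 and 6 share a code in their descriptions, whose meaning the labels do not give.

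Cdh11 (probe set 10581013) read 7.28, 8.87 and 10.31 in sham tumours, 6.93, 9.42 and 10.23 at 10 cGy, 7.56, 9.79 and 10.64 at 30 cGy, and 8.03, 9.61 and 11.48 at 80 cGy. Vim (probe set 10469322) stood out among the members for its narrow range. It read 11.91, 12.85 and 13.52 in sham tumours, 11.90, 12.73 and 13.53 at 10 cGy, 12.38, 12.89 and 13.29 at 30 cGy, and 12.35, 13.06 and 13.58 at 80 cGy. Its SD of 0.40 was above that of 42.8% of genes. The highest value in the whole table was 14.06, and whether the Vim signal is compressed near the top of the scale was not tested. Signal differs between probe sets for technical reasons, and the levels of the 6 genes are not compared with each other.

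**Figure D1:**
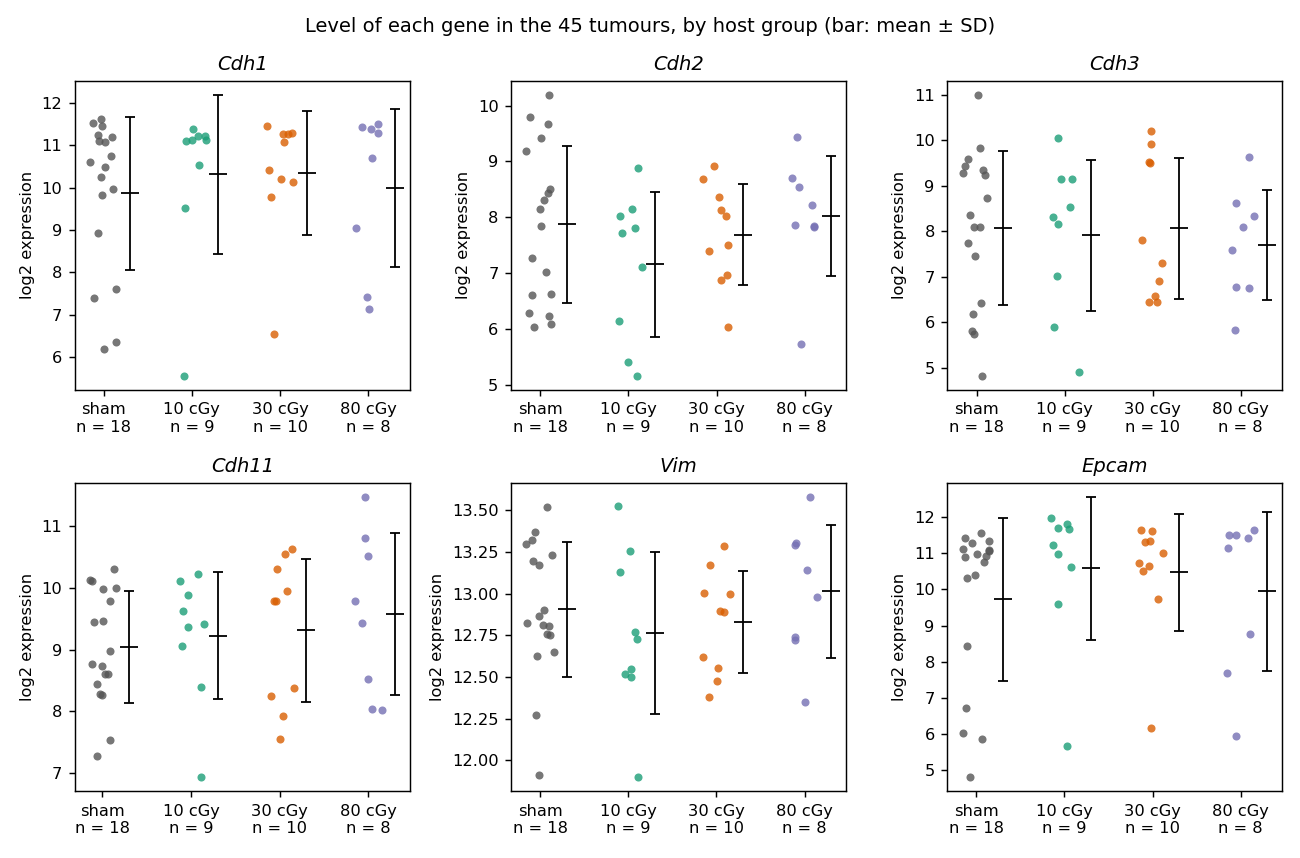
Deposited log2 expression of the 6 genes in each of 45 tumours (points), by host group, with the mean and SD (bars). The groups overlap for each gene, and Cdh1 and Epcam have low tumours in every group.

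Levels of the 6 genes were not shown to differ between tumours of irradiated and sham hosts. No member passed an adjusted p of 0.05 in limma, with Benjamini-Hochberg adjustment over 12123 genes, in any of 5 tests: the mean of the 3 dose groups, each dose, and any difference among the 4 groups. No gene of the 12123 passed either, so that 0% were called in each test. At an unadjusted p under 0.05 the shares of all genes were 5.82% for the dose mean, 3.65% for 10 cGy, 4.45% for 30 cGy, 6.97% for 80 cGy and 4.13% for the 4-group test, and no member was among them. Between 0.839% (Cdh3) and 6.04% (Cdh2) of a member's variance lay between groups, against a median of 5.54% over all genes.

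Group means, ordered from low to high, differed by less than 1 SD between neighbours for each gene. Cdh1 averaged 9.86 ± 1.80 in sham tumours (SD, n = 18), 9.99 ± 1.86 at 80 cGy (n = 8), 10.31 ± 1.87 at 10 cGy (n = 9) and 10.34 ± 1.46 at 30 cGy (n = 10). Epcam followed the same order of groups except at its top: 9.72 ± 2.26 in sham tumours, 9.95 ± 2.20 at 80 cGy, 10.47 ± 1.62 at 30 cGy and 10.58 ± 1.98 at 10 cGy. Cdh3 averaged 7.70 ± 1.22 at 80 cGy, 7.91 ± 1.66 at 10 cGy and 8.07 both in sham tumours (SD 1.69) and at 30 cGy (SD 1.55).

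Among the mesenchymal members, Cdh2 averaged 7.15 ± 1.30 at 10 cGy, 7.69 ± 0.90 at 30 cGy, 7.87 ± 1.40 in sham tumours and 8.02 ± 1.08 at 80 cGy. Cdh11 averaged 9.04 ± 0.91 in sham tumours, 9.23 ± 1.03 at 10 cGy, 9.32 ± 1.16 at 30 cGy and 9.58 ± 1.31 at 80 cGy. These means lay in the order of the doses, but the medians did not (9.79 at 30 cGy and 9.61 at 80 cGy). A trend with dose was not tested. The Vim means were 12.76 ± 0.49 at 10 cGy, 12.83 ± 0.31 at 30 cGy, 12.90 ± 0.40 in sham tumours and 13.01 ± 0.40 at 80 cGy.

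The fitted difference of the 3 doses from sham was 0.35 ± 0.52 for Cdh1 (SE; 95% interval -0.70 to 1.40) and 0.61 ± 0.61 for Epcam (-0.62 to 1.84). It was -0.17 ± 0.47 for Cdh3 (-1.12 to 0.77) and -0.25 ± 0.37 for Cdh2 (-0.99 to 0.49). Cdh11 differed by 0.33 ± 0.32 (-0.30 to 0.97) and Vim by -0.04 ± 0.12 (-0.28 to 0.21). Of the single doses, the smallest unadjusted p was that of Cdh2 at 10 cGy, -0.72 ± 0.49 (-1.70 to 0.27), with limma p = 0.15 and adjusted p = 0.991. At 80 cGy Cdh11 differed from sham by 0.54 ± 0.44 (-0.35 to 1.42, adjusted p = 0.861) and Cdh1 by 0.12 ± 0.72 (-1.33 to 1.58). These dose comparisons share the 18 sham tumours.

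Single tumours moved these values by more than 1.5 times. The dose-mean difference of Cdh1 was 0.13 without sham replicate 16 and 0.55 without 10 cGy replicate 1. That of Epcam was 0.32 without sham replicate 10, and that of Cdh2 was -0.11 without sham replicate 6. For Cdh3 it was -0.36 without sham replicate 16 and -0.00017 without sham replicate 11, and for Vim it was -0.095 without sham replicate 17 and -0.00025 without 10 cGy replicate 3. Cdh11 at 80 cGy was 0.26 without 80 cGy replicate 1, and Cdh2 at 10 cGy was -0.47 without 10 cGy replicate 5. With arrays weighted by quality, the dose-mean difference was 0.75 ± 0.48 for Cdh1 (limma adjusted p = 0.475) and 1.15 ± 0.57 for Epcam (adjusted p = 0.364).

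Without the endothelium-rich pair, the 10 cGy difference went from 0.45 to 0.83 for Cdh1, from 0.86 to 1.25 for Epcam and from -0.15 to 0.03 for Cdh3. At 80 cGy, that of Cdh1 went from 0.12 to -0.09 and that of Epcam from 0.23 to 0.0024, and that of Cdh3 from -0.36 to -0.55. At 30 cGy, Cdh1 went from 0.48 to 0.26, Epcam from 0.74 to 0.52, and Cdh3 from 0.0021 to -0.19. Neither with nor without the pair was a member or any other gene called.

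**Figure D2:**
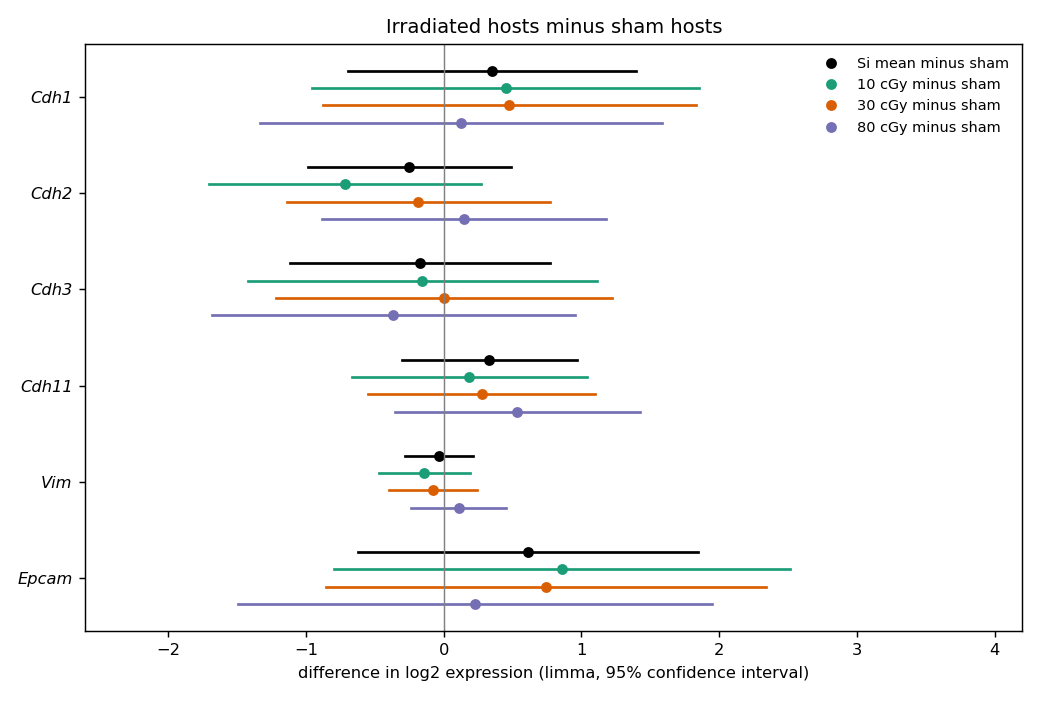
Differences in log2 expression from sham hosts for each gene, for each dose and for the mean of the 3 doses (points), with 95% intervals from limma (lines). Each interval includes 0.

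Cdh1 split the tumours in 2. Its sorted values had a gap of 1.33 between 7.61 (sham replicate 13) and 8.93 (sham replicate 6), with 8 tumours below and 37 above. The 8 were 4 of 18 sham tumours and 4 of 27 tumours of irradiated hosts: 1 of the 9 given 10 cGy, 1 of the 10 given 30 cGy and 2 of the 8 given 80 cGy. No other member had a gap of at least 1 with 6 or more tumours on each side. The widest for Epcam was 0.96, with 7 tumours below it. The same 8 tumours also had the 8 lowest Epcam values, so that Cdh1 and Epcam marked the same tumours.

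In these 8 tumours Vim was high in each, while the other cadherins were not uniform. Vim read 13.17 to 13.58 and lay above the series median of 12.87 in 8 of 8. Cdh2 was above its median of 7.85 in 5 of 8 and among the 8 highest in 4 of 8. Cdh11 was above its median of 9.43 in 2 of 8, and Cdh3 above its median of 8.10 in 2 of 8. Low Cdh1 therefore went with high Cdh2 in some of these tumours and with high Cdh11 in fewer.

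Of the 8, the tumours with the most Cdh2 were sham replicates 13, 5 and 10 and 80 cGy replicate 8. Sham replicate 5 had Cdh1 at 7.40, Cdh2 at 9.67, Cdh11 at 10.31 and Epcam at 6.72. In 80 cGy replicate 8, Cdh1 was 7.42, Cdh2 9.44 and Cdh11 10.81, Cdh3 was 5.84, and Vim, at 13.58, was the highest of the series. Sham replicate 13 had Cdh1 at 7.61, Cdh2 at 9.80, Cdh3 at 9.29 and Cdh11 at 8.60. Sham replicate 10 had the lowest Epcam, 4.80, with Cdh1 at 6.35, Cdh2 at 9.42 and Cdh11 at 8.61. These 4 tumours paired low Cdh1 with high Cdh2, and 2 of them also had high Cdh11.

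The other 4 had less Cdh2. In 30 cGy replicate 4, Cdh1 was 6.54, Cdh2 7.50 and Cdh11 7.93, yet Cdh3 was 9.49. In 80 cGy replicate 3, Cdh1 was 7.13, Cdh2 8.23, Cdh3 7.58 and Cdh11 8.03. The endothelium-rich pair had the lowest Cdh1 of all (5.56 in 10 cGy replicate 1 and 6.18 in sham replicate 16) with Cdh2 at 7.81 and 7.85 and Vim at 13.53 and 13.52. Neither had Cdh11 above the series median.

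High Cdh2 was also found in tumours above the Cdh1 gap. The highest Cdh2 of all, 10.19, was in sham replicate 6, which lies at the upper edge of the gap and is the lowest of the 37 in Cdh1 (8.93) and Epcam (8.43). This tumour shares a description code with sham replicate 5, below the gap, and their arrays had r = 0.96. Whether these tumours are related is not known from the labels. Well above the gap, sham replicate 11 combined Cdh1 at 11.52 with Cdh2 at 9.19 and the highest Cdh3, 10.99. Cdh11 was highest in 80 cGy replicate 1, 11.48, in a tumour with Cdh1 near the gap, at 9.04.

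**Figure D3:**
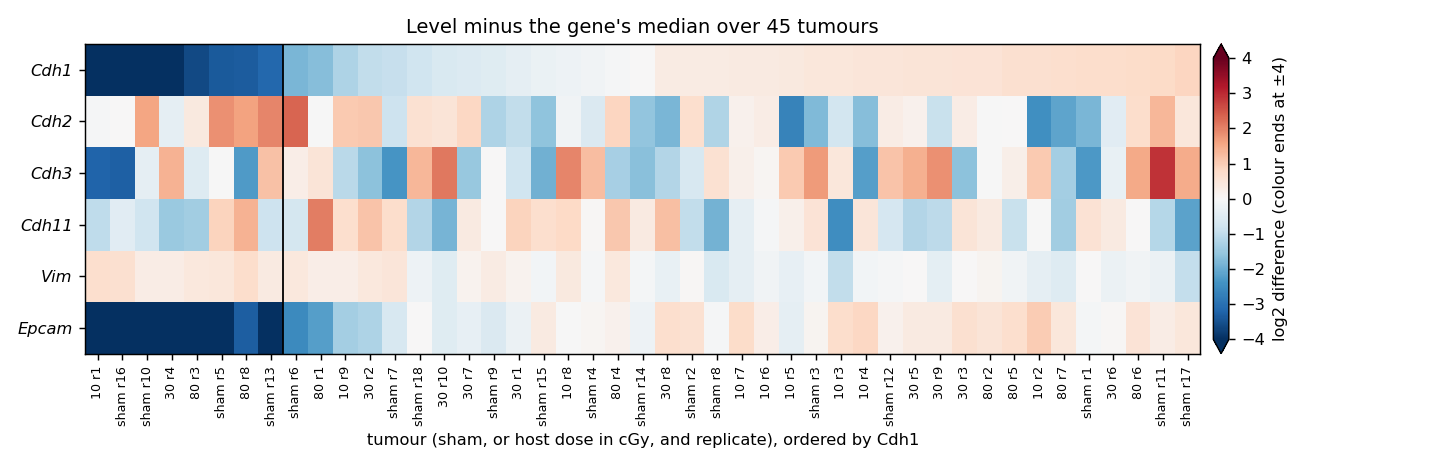
Log2 difference of each gene from its own median over 45 tumours (colour, ending at ±4), with tumours ordered by Cdh1 from low to high. The 8 tumours at the low end of Cdh1 are low in Epcam and above the median in Vim, and differ among themselves in Cdh2, Cdh3 and Cdh11.

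Because the tumours fell into separate sets by Cdh1, correlations between members were computed within the 8 and within the 37 tumours, for 15 pairs each. The 37 had been separated by Cdh1 itself, which narrows the range of Cdh1 in them. Of 30 relations, 6 passed an adjusted p of 0.05 for r, 5 of them in the 37 tumours. There, Cdh1 rose with Epcam, Vim rose with Cdh11, and Vim fell as Cdh1 or Epcam rose. Cdh3 fell as Cdh11 rose.

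Cdh1 and Epcam had r = 0.87 and Spearman's rho = 0.67 over the 37 tumours, each with permutation p = 1e-05, the smallest that 100000 resamples can give (adjusted p = 0.00015 and 0.0003). The r was 0.79 without the 2 tumours farthest from the median of Cdh1, 0.81 in 14 sham and 0.92 in 23 irradiated tumours. For Cdh11 and Vim, r was 0.71 and rho 0.65 (permutation p = 1e-05 and 4e-05, adjusted p = 0.00015 and 0.0006). Here r was 0.59 without the 2 farthest tumours, 0.66 in sham and 0.77 in irradiated tumours. Both relations had the same sign in both sets of hosts.

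Vim had r = -0.59 with Cdh1 (rho = -0.55; permutation p = 0.00016 and 0.00051, adjusted p = 0.0016 and 0.0051), and r was -0.54 without the 2 farthest tumours. With Epcam, Vim had r = -0.54 (rho = -0.51; permutation p = 0.00066 and 0.00131, adjusted p = 0.00495 and 0.00786), or -0.55 without the 2. In sham and irradiated tumours r with Cdh1 was -0.67 and -0.54, and with Epcam -0.60 and -0.51. Cdh3 and Cdh11, a basal and a mesenchymal cadherin, had r = -0.48 (rho = -0.52; permutation p = 0.00272 and 0.00129, adjusted p = 0.0163 and 0.00786), -0.44 without the 2, -0.61 in sham and -0.41 in irradiated tumours.

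The pair of the classical switch, Cdh1 and Cdh2, had r = -0.37 (rho = -0.22; permutation p = 0.023 and 0.198, adjusted p = 0.0938 and 0.371), which did not pass. Without the 2 farthest tumours r was -0.24. For Cdh1 and Cdh11 r was -0.35 (rho = -0.39; permutation p = 0.0344 and 0.018, adjusted p = 0.0938 and 0.0899), and for Cdh2 and Vim 0.31 (rho = 0.33; permutation p = 0.0577 and 0.0443, adjusted p = 0.133 and 0.125). Cdh2 and Cdh11 had r = -0.14 (rho = -0.15; permutation p = 0.406 and 0.38, adjusted p = 0.529 and 0.508). That r was -0.59 in the 14 sham and 0.12 in the 23 irradiated tumours, a difference that was not tested. No relation of Cdh2 with another member passed in the 37 tumours.

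Within the 8 tumours of low Cdh1, Cdh3 and Vim had r = -0.90 (rho = -0.79; exact permutation p = 0.00623 and 0.0279, adjusted p = 0.0311 and 0.0931, two-sided). This r was -0.84 without the endothelium-rich pair and then, over 6 tumours, had an adjusted p of 0.102 (exact permutation p = 0.0319). Cdh1 and Cdh2 had r = 0.70 in the 8, of opposite sign to that in the 37, with rho = 0.79 (exact permutation p = 0.0461 and 0.0279, adjusted p = 0.115 and 0.0931). Without the pair this r was 0.52 (exact permutation p = 0.257, adjusted p = 0.35). That of Vim and Epcam went from 0.48 to 0.86 (exact permutation p = 0.0417, adjusted p = 0.104).

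**Figure D4:**
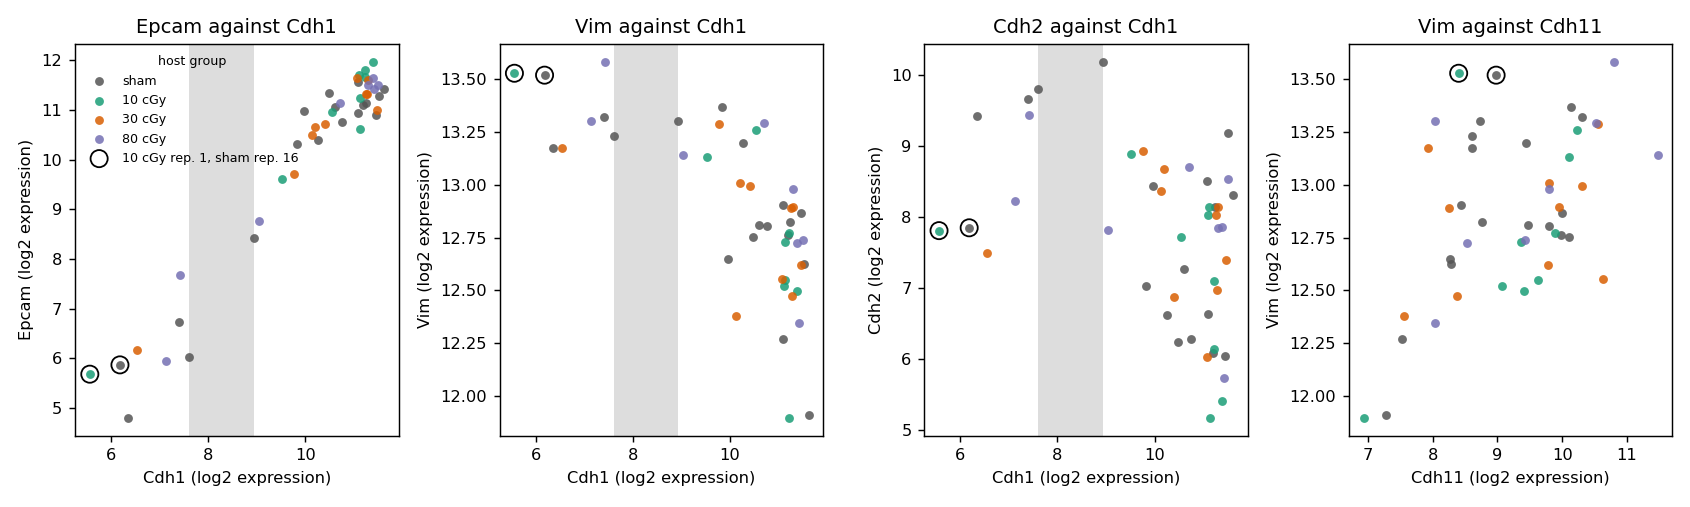
Log2 expression of pairs of members in the 45 tumours, coloured by host group, with circles around 10 cGy replicate 1 and sham replicate 16 and a grey band over the gap in Cdh1. The 8 tumours below the gap have the 8 lowest Epcam values, and Cdh2 reaches high values on either side of the gap.

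The genes whose levels were most like a member's were found by Pearson's r over the 45 tumours, given as a description with the r over the 37 tumours beside it. The r over 45 reflects the separation of the 8 tumours as well. Cdh1 and Epcam had many near matches: 129 and 133 of 12122 other genes had r above 0.8. Vim had 39, Cdh11 had 12, and Cdh2 and Cdh3 had 0.

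Closest to Cdh1 were Esrp1, an epithelial splicing regulator (r = 0.97 over 45 and 0.89 over 37), Epcam (0.97 and 0.87), Kdf1 (0.96 and 0.89), the protease inhibitor Spint1 (0.96 and 0.79) and the small GTPase Rab25 (0.95 and 0.88). Farthest were the neuronal growth gene Gap43 (-0.86 and -0.68), Stard13 (-0.85 and -0.77) and the semaphorin and VEGF co-receptor Nrp1 (-0.84 and -0.61). Epcam had Esrp1 (0.98 and 0.88), Cdh1, Spint1 (0.96 and 0.76), the membrane protease St14 (0.96 and 0.78) and the epithelial transcription factor Grhl2 (0.96 and 0.79). Its lowest were Gap43 (-0.85 and -0.69), Nlrc3 (-0.84 and -0.61) and Serp2 (-0.84 and -0.62). The 8 and the 37 tumours did not overlap in Esrp1, which ran from 3.73 to 6.49 and from 6.93 to 10.91, or in Grhl2, from 3.95 to 5.44 and from 5.75 to 9.02. Both genes were picked by their r over these same 45 tumours, so that this separation is not a separate result. The share of all genes without overlap was not counted.

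The genes most like Cdh3 included several of the basal layer. They were the basal transcription factor Trp63 (r = 0.75 over 45 and 0.77 over 37), Tead3, a partner of Yap (0.71 and 0.66), the basal keratin Krt14 (0.71 and 0.71), the hemidesmosome collagen Col17a1 (0.69 and 0.75) and Art4 (0.69 and 0.76). The lowest r was that of Galnt1, a mucin-type glycosyltransferase (-0.69 and -0.63), then Iqsec2 (-0.65 and -0.58) and A4galt (-0.65 and -0.54).

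Matrix genes were nearest to Cdh11: Spon1 (0.91 over 45 and 0.90 over 37), Thbs2 (0.88 and 0.89) and the collagen genes Col5a2 (0.86 and 0.89), Col1a1 (0.84 and 0.89) and Col12a1 (0.83 and 0.83). Its lowest were Tamm41, a mitochondrial cardiolipin synthesis gene (-0.70 and -0.72), Tfap4 (-0.65 and -0.64) and Plekha2 (-0.61 and -0.70). Nearest to Vim were the basement membrane gene Nid1 (0.86 and 0.84), the metalloproteinase inhibitor Timp1 (0.86 and 0.85), Nrp1 (0.85 and 0.79), Angptl4 (0.85 and 0.81) and Ebf1 (0.85 and 0.80). Vim opposed Camsap3 (-0.79 and -0.72), Bcl7a (-0.79 and -0.72) and Prom2 (-0.79 and -0.69).

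Cdh2 had no gene with r above 0.8. Its highest were Fam110b (0.72 over 45 and 0.65 over 37), the replication protein gene Rpa1 (0.72 and 0.64), Ston1 (0.70 and 0.62), Ergic1 (0.68 and 0.62) and Sgtb (0.67 and 0.63). The lowest were Rnf208 (-0.69 and -0.64), the phosphate transporter Slc34a2 (-0.65 and -0.62) and Nfe2l3 (-0.64 and -0.61).

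Gene lists of cadherin partners and of the epithelial and mesenchymal state were set beside the members, over the 37 tumours. Epithelial junction and surface genes followed Cdh1: the median r of the 26 measured of 28 was 0.64, with 26 of 26 above 0, against a median of 0.04 over all genes. Their median r was -0.49 with Vim (0 of 26 above 0) and -0.31 with Cdh2 (0 of 26). The 11 epithelial state regulators had a median of 0.58 with Cdh1 (11 of 11 above 0) and -0.44 with Vim (0 of 11). The medians over all genes were -0.08 for Vim and 0.04 for Cdh2. The cadherin partners had a lower median of 0.26 with Cdh1, with 9 of 10 above 0. Among them were plakoglobin, Jup (0.78), p120 catenin, Ctnnd1 (0.60), and Pkp4 (0.38). The partner below 0 was Vcl (-0.49).

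Transcription factors of epithelial-mesenchymal transition had mostly positive r with Vim and Cdh11. For the 9 kept of 10 (Gsc was not kept), the median r was 0.63 with Vim (8 of 9 above 0), 0.60 with Cdh11 (8 of 9), 0.07 with Cdh2 (6 of 9) and -0.30 with Cdh1 (3 of 9). The repressor Zeb1 had r = -0.71 with Cdh1 and 0.75 with Vim, Zeb2 -0.66 and 0.83, and Snai1 -0.30 and 0.65. The factor below 0 with Vim (-0.37) and Cdh11 (-0.40) was Snai2, which had r = 0.04 with Cdh1 and 0.74 with Cdh3. Zeb1 read 9.17 to 10.56 in the 8 tumours of low Cdh1 and 6.52 to 9.93 in the 37. The 17 mesenchymal genes had medians of 0.50 with Vim (16 of 17), 0.51 with Cdh11 (16 of 17), 0.09 with Cdh2 (13 of 17) and -0.36 with Cdh1 (1 of 17).

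The 4 basal genes (Krt5, Krt14, Krt17 and Trp63) had a median r of 0.72 with Cdh3 (4 of 4 above 0) and -0.42 with Cdh11 (0 of 4). The 4 luminal keratins had 0.27 with Cdh1 (4 of 4) and -0.32 with Cdh3 (1 of 4). Of 9 other cadherins, Cdh4, Cdh8, Cdh15, Cdh16 and Cdh17 were not kept by the filter. Of the 4 kept, Cdh13, a cadherin held to the membrane by a lipid anchor, had r = -0.42 with Cdh1 and 0.60 with Vim. Cdh5 had -0.31 and 0.64, and Cdh10 0.06 and 0.01. The median of all genes was 0.003 for Cdh3 and -0.07 for Cdh11.

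**Figure D5:**
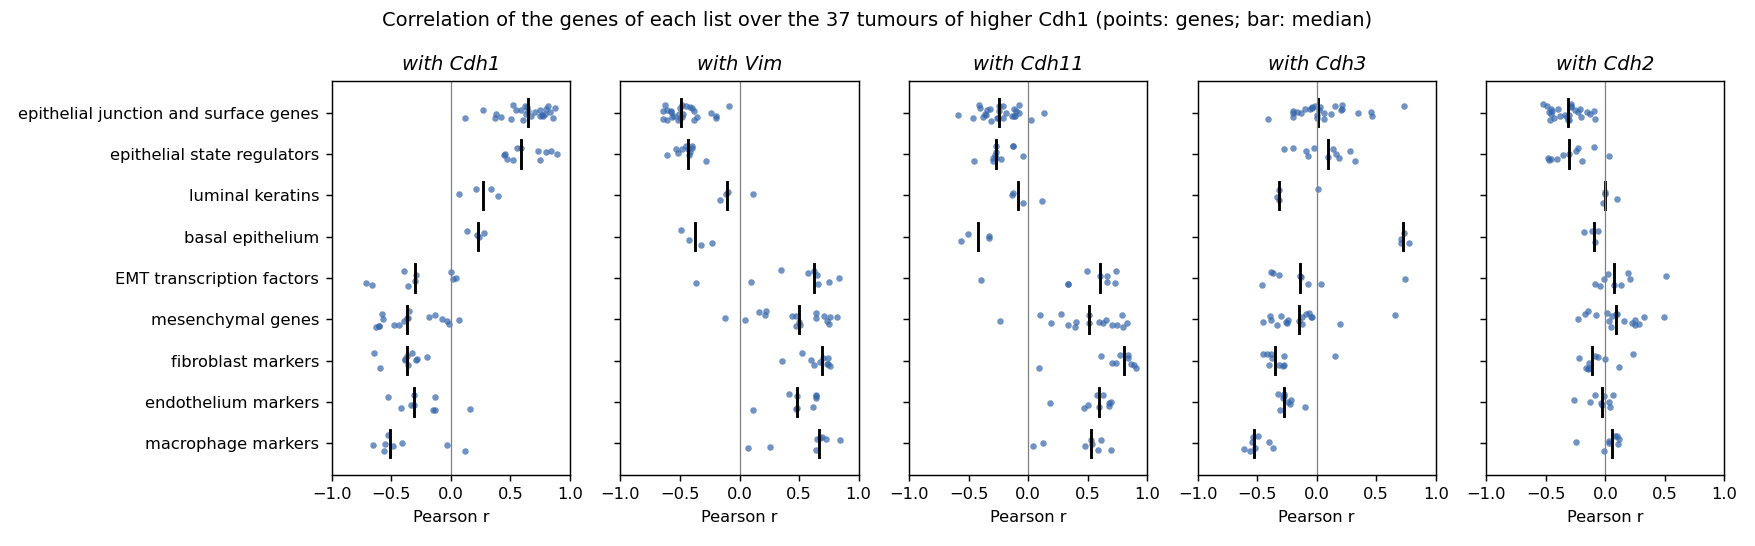
Pearson's r of each gene of a list with Cdh1, Vim, Cdh11, Cdh3 or Cdh2 over the 37 tumours of higher Cdh1 (points), with the median of the list (bars). Junction genes lie above 0 with Cdh1, basal genes with Cdh3, and fibroblast markers with Cdh11 and Vim.

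Markers of fibroblasts, endothelium and macrophages moved with Cdh11 and Vim. The 10 fibroblast markers had a median r of 0.80 with Cdh11 and 0.69 with Vim (10 of 10 above 0 for both), and -0.37 with Cdh1 (0 of 10). Their mean level ran from 7.56 to 11.15 in sham tumours, 7.72 to 10.77 at 10 cGy, 8.29 to 10.50 at 30 cGy and 8.33 to 10.98 at 80 cGy. The 9 endothelium markers had medians of 0.60 with Cdh11 and 0.48 with Vim (9 of 9 for both). Their mean ran from 6.97 to 10.96 in sham tumours, 6.76 to 11.02 at 10 cGy, 7.44 to 9.13 at 30 cGy and 7.85 to 8.86 at 80 cGy. For the 8 macrophage markers the medians were 0.53 with Cdh11 and 0.67 with Vim (8 of 8 for both), -0.51 with Cdh1 (1 of 8) and -0.53 with Cdh3 (0 of 8). Their mean ran from 7.48 to 10.74 in sham tumours, 8.61 to 9.93 at 10 cGy, 7.87 to 10.35 at 30 cGy and 8.92 to 10.23 at 80 cGy. All genes of these 3 lists passed the filter on low values. Other marker lists differed. For smooth muscle and myoepithelium markers the medians were -0.40 with Cdh11 and -0.32 with Vim (0 of 7 above 0 for both). For nerve and Schwann markers they were -0.24 and -0.32, and for T cell markers 0.05 and 0.08. Skeletal muscle markers had 0.31 and 0.10, and adipocyte markers 0.20 and 0.11. The part of these cells in the levels of Cdh11 and Vim, and in their correlation, was not tested.

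Cdh3 moved with the 7 smooth muscle and myoepithelium markers, with a median r of 0.44 (7 of 7 above 0). Their mean ran from 7.51 to 11.41 in sham tumours, 7.61 to 10.03 at 10 cGy, 7.99 to 11.80 at 30 cGy and 6.95 to 9.84 at 80 cGy. Cdh2 had a median r of -0.45 with the 6 adipocyte markers kept of 8 (0 of 6 above 0). A mean was taken over the 7 adipocyte markers measured, which include Lep, not kept by the filter. It ran from 5.14 to 10.34 in sham tumours, 4.78 to 8.56 at 10 cGy, 5.18 to 11.18 at 30 cGy and 5.21 to 8.31 at 80 cGy. The part of these cells was not tested either.

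Of the 137 genes of all 17 lists that were tested, members aside, 0 passed an adjusted p of 0.05 in limma in any dose comparison. At an unadjusted p under 0.05 there were 1 for the dose mean (0.730%), 2 at 10 cGy (1.46%), 1 at 30 cGy (0.730%) and 4 at 80 cGy (2.92%). Each share was below that of all genes in the same test, 5.82%, 3.65%, 4.45% and 6.97%. The 4 at 80 cGy were Snai1 (1.15 ± 0.47, SE), Twist1 (0.60 ± 0.29), Twist2 (1.14 ± 0.53) and the basal keratin Krt5 (-2.47 ± 1.15), each short of the adjusted threshold. The median difference at 80 cGy was 0.54 for the 9 transition factors, 0.33 for the 17 mesenchymal genes, 0.11 for the 26 junction genes and -1.07 for the 4 basal genes, against 0.03 over all genes. In the same order of lists these medians were 0.03, -0.17, 0.48 and 0.46 at 10 cGy (0.01 over all genes), and 0.0065, -0.02, 0.31 and -0.09 at 30 cGy (-0.0032 over all genes). For the dose mean they were 0.20, 0.02, 0.36 and -0.25, against 0.01. The basal and transition-factor medians at 80 cGy were thus not matched at 30 cGy. Markers of other cells also differed in their medians. At 10, 30 and 80 cGy these were -0.14, -0.09 and 0.48 for fibroblast markers, and -0.51, 0.20 and -0.79 for smooth muscle and myoepithelium markers (0 of 7 above 0 at 80 cGy). For the 7 skeletal muscle markers kept of 10 they were -1.36, -0.30 and 0.94. The mean of all 10 was far higher in some tumours than in most of their group. Its median and highest values were 5.50 and 11.17 in sham tumours and 5.01 and 5.79 at 10 cGy. They were 5.26 and 11.89 at 30 cGy, and 6.38 and 9.80 at 80 cGy. The part of these cells in the list medians was not tested.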

How the data were processed

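The authors deposited log2 values for each probe set in 45 tumours, made with RMA and oligo per the submitters' processing notes. Tool versions and the genome build were not given in the sources used here. Of 35556 probe sets, 21218 named 1 gene in the platform annotation (18820 genes, each by its highest-mean probe set). A gene was kept where it exceeded the table median, 5.67, in at least 8 tumours. Differences were fitted with limma 3.58.1 (R 4.3.3) on 4 group means, two-sided, with Benjamini-Hochberg adjustment over 12123 genes and a threshold of 0.05; the code was tested on simulated data. Correlations used two-sided permutation tests in SciPy 1.17.1, exact for 8 tumours and with 100000 resamples for 37, adjusted over 30 relations. Named genes were the members, the 5 highest and 3 lowest r of each member, and of each list at most the 3 largest r with Cdh1 and the 3 smallest p. The members and lists were chosen with earlier results of these data known. Alternatives were the filter, scaling, replicate block, description code, array weights, probe set mean, subsets of tumours and each tumour left out. Promoters came from RefSeq (GRCm38.p6).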

Additional observations from a re-analysis of the deposited data

Results flagged for a closer look

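In the host groups of 8 to 10 tumours, 18 sets of values were checked for a lowest or highest tumour far from the rest, and 5 had one, where chance gives about 1 in 20. Cdh1 and Epcam gave 4 of these. In 10 cGy replicate 1, Cdh1 was 5.56 and the next tumour of the group 9.52, and Epcam was 5.68 and the next 9.61. In 30 cGy replicate 4, Cdh1 was 6.54 and the next tumour 9.77, and Epcam was 6.16 and the next 9.72. Both tumours are among the 8 of low Cdh1, and they were the only such tumours of their groups. The fifth was Cdh2 in 80 cGy replicate 7, at 5.73 with the next tumour at 7.82. Sham tumours, 18 in number, were too many for this check.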

How the results depend on the processing

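No member was called under any alternative. The lowest adjusted p was 0.364 (Epcam, dose mean, array weights), with p = 0.0487, the single limma p under 0.05. Member differences kept their direction in 242 of 258 alternatives and in 1054 of 1080 fits without 1 tumour. Part of these fits could not change a difference, so that the counts overstate stability. Omitting the filter, averaging probe sets (1 per member) and fitting only sham and 1 dose kept the group means. Leaving out a tumour of another dose kept the difference of a single dose. Of genes called, against 0 in the report, array weights gave 30 at 80 cGy and 2 in the 4-group test, and fitting only sham and 80 cGy gave 1. Replicate numbers did not pair tumours: deviations of same-numbered tumours had a median r of -0.07 over 52 pairs, against -0.02 over 676 others. With the replicate block, 6 genes were called for the dose mean and 1 at 80 cGy; the sign turned for Cdh3 (0.064 for the dose mean, 0.099 at 10 cGy), Cdh11 at 10 cGy (-0.17) and Cdh1 at 80 cGy (-0.027). Array weights turned Cdh3 (0.0081 for the dose mean, 0.092 at 10 cGy, -0.030 at 30 cGy), and renewed quantile normalization turned Cdh3 at 30 cGy (-0.00020). With only sham tumours coded 5, Cdh11 at 10 cGy was -0.038. With only those coded 6, Vim was 0.079 for the dose mean and 0.038 at 30 cGy, Cdh3 -0.18 at 30 cGy and Cdh2 -0.011 at 80 cGy. Without the endothelium-rich pair, an alternative chosen after seeing the data, Cdh3 was 0.031 at 10 cGy and -0.19 at 30 cGy, and Cdh1 -0.092 at 80 cGy. Leaving out 1 tumour gave Cdh3 -0.42 to 0.22 at 10 cGy and -0.24 to 0.18 at 30 cGy, and Cdh2 -0.32 to 0.0014 at 30 cGy. At 80 cGy it gave Cdh1 -0.092 to 0.53, Cdh2 -0.055 to 0.48 and Epcam -0.061 to 0.80. It called 0 to 1 gene for the dose mean (1 without 10 cGy replicate 5 or sham replicate 12) and at 80 cGy (1 without 80 cGy replicate 7). Within the 8 tumours of low Cdh1, r of Cdh3 and Vim was -0.84 without the 2 farthest tumours (those of the pair) and -0.75 with equal array medians, both short of the threshold. Without the 2 farthest tumours, r turned for Cdh1 and Vim (0.28) and Cdh11 and Epcam (-0.36), and with equal medians for Cdh3 and Epcam (0.0065). Without the pair it turned for Cdh1 and Cdh3 (-0.19), Cdh1 and Vim (0.58), Cdh2 and Cdh3 (-0.31) and Cdh2 and Vim (0.31). The cause was not tested. The 5 relations called in the 37 tumours passed under every alternative run. Averaging probe sets and leaving out the endothelium-rich pair could not change their r, since each member had 1 probe set and the pair is not among the 37. The description code was not used in the correlations. Removing group means was not run for the 8 tumours, and the fit of sham and 1 dose was not run for the dose mean or the 4-group test. The number of arrays limits how small a difference could be seen.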

Other observations

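Among the descriptions of the tumours, 8 pairs of arrays share a code, whose meaning the labels do not give. Tumours that share it differed by a median of 0.55 in Cdh1, 0.50 in Epcam and 1.30 in Cdh11, against 1.08, 0.96 and 1.07 over all 990 pairs. The medians were 0.84 in Cdh2, 1.17 in Cdh3 and 0.33 in Vim, against 1.23, 1.56 and 0.39. Cdh11 was thus the only member not closer within a code. The correlation of tumours sharing a code, fitted over the genes kept, was 0.24. The main tests treated all tumours as separate. Sham replicates 13 and 14 share a code and differed by 3.15 in Cdh1, 4.73 in Epcam and 3.52 in Cdh2. Sham replicates 5 and 6 share another, with r = 0.96 between their arrays. They differed by 1.54 in Cdh1, 1.70 in Epcam and 0.52 in Cdh2. Whether such tumours come from 1 host or 1 donor is not known from the labels.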
